A study of Homo sapiens with 18 samples.

Results

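The response of THP-1 cells to interleukin 4 (IL-4) was measured here in cells that carried DNMAML, a dominant-negative form of Mastermind-like 1 that blocks transcription through Notch. THP-1 is a human monocytic leukaemia line. The comparison took the 3 libraries of DNMAML cells given IL-4 at 20 ng/ml for 3 h (DNMAML IL4) and the 3 libraries of DNMAML cells left without IL-4 (DNMAML un), 6 of the series' 18 libraries, chosen by their labels alone. The other 12 libraries came from cells with the empty IRES vector or with NIC1, the constitutively active intracellular part of NOTCH1, each without and with the same IL-4 treatment, 3 libraries per group. All 18 shared the same preparation: transduction with an MSCV-GFP retroviral vector, sorting of GFP-positive cells, and PMA at 5 ng/ml for 48 h, which turns THP-1 cells into adherent macrophage-like cells. The IL-4 response in DNMAML cells is therefore a response of sorted, PMA-treated leukaemia cells that all carried a retroviral vector. Libraries were numbered by experiment, 1 to 3, and the number entered each fit as a term. The p-values reflect the spread that remains over all 18 libraries after the group means and the experiment term. The labels do not say what was repeated between experiments, so part of that spread may be technical.

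IL-4 binds a receptor made of IL4R and the common gamma chain, or IL4R and IL13RA1. The receptor-bound JAK kinases then phosphorylate STAT6, which enters the nucleus, binds short palindromic DNA sites and raises the transcription of a set of genes that mark alternatively activated macrophages. Notch works by another route: ligand binding frees the intracellular part of the receptor, which joins the DNA-binding protein RBPJ and recruits Mastermind to start transcription. A truncated Mastermind occupies this complex without activating it.

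The labels were checked on MAML1, the gene from which DNMAML is derived. In CPM (counts per 1000000 gene-assigned reads, scaled by library), MAML1 stood at 132, 123 and 139 in DNMAML un experiments 1 to 3 and at 125, 116 and 102 in DNMAML IL4, against 88.9 ± 9.32 (mean ± SD, n = 3) in IRES un and 84.3 ± 5.26 in IRES IL4. All 6 DNMAML libraries were above the IRES means. The log2 difference was 0.56 ± 0.076 (SE, adjusted p = 0.0025, edgeR's quasi-likelihood test) before IL-4 and 0.44 ± 0.076 (adjusted p = 0.0246) after it. The call without IL-4 was lost without IRES un number 2 (adjusted p = 0.0692). The call with IL-4 was lost without any one IRES IL4 library or DNMAML IL4 number 1 or 2 (adjusted p 0.0523 to 0.201), and it stood at 0.57 without DNMAML IL4 number 3 (adjusted p = 0.000161). Without the experiment term neither difference passed (adjusted p = 0.258 and 1). Reads from the vector and from the cells' own MAML1 gene cannot be told apart in these counts, and the labels do not give the stretch of MAML1 in the vector. NOTCH1 was lower in DNMAML than in IRES cells, by -0.30 ± 0.056 (adjusted p = 0.0315) without IL-4 and -0.31 ± 0.055 (adjusted p = 0.0253) with it. The NOTCH1 call without IL-4 was lost without IRES un number 2 or 3 or any one DNMAML un library (adjusted p 0.0739 to 0.173), and that with IL-4 without any one IRES IL4 library or DNMAML IL4 number 1 or 3 (0.0616 to 0.239). Of 19 Notch target genes tested edgeR, fitted as above, called 0 between DNMAML and IRES cells in either condition, with 6 at an unadjusted p under 0.05 in each, and DESeq2 called HES1 without IL-4 (adjusted p = 0.00957) and HES1 and HES4, a related repressor, with it. HES1, a repressor directly induced by Notch, had a log2 difference of -0.76 ± 0.19 (adjusted p = 0.134) without IL-4 and of -1.05 ± 0.20 (adjusted p = 0.0516) with it. HES1 lay near the threshold with IL-4: edgeR called it with RLE factors (adjusted p = 0.0487), with library sizes alone (0.0387), with a filter of 1 CPM (0.0476), with the filter set without DNMAML IL4 number 3 (0.0496), without IRES IL4 number 1 (0.0479) and without DNMAML IL4 number 2 (0.0492). With no filter on low counts it was called with IL-4 (8.62e-14) and without it (1.96e-07). HES4 with IL-4 was called with no filter (0.00136) and without IRES IL4 number 1 (0.0477). In DTX1, another target, it was -0.69 ± 0.31 and -1.11 ± 0.36, in HES4 -0.34 ± 0.21 and -0.91 ± 0.21, in HEY1 -0.27 ± 0.25 and -0.16 ± 0.20, and in NRARP 0.06 ± 0.20 and 0.00 ± 0.20. At the threshold of 0.05 this contrast called 22 of 15037 genes (0.146%) without IL-4 and 14 (0.0931%) with it, of which 7 remained without DNMAML IL4 number 3. With both that library and IRES un number 3 left out, edgeR called 2 without IL-4 and 6 with it. NOTCH1 was then called in neither condition (adjusted p = 0.18 and 0.271). Without the experiment term edgeR called 0 in both, with 371 and 357 at an unadjusted p under 0.05, and DESeq2 with the term called 63 and 59.

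Gene-assigned counts ranged from 12410668 to 15099788 over the 18 libraries and from 13080749 to 14993002 over the 6 DNMAML libraries. Of the macrophage markers, CSF1R, ITGAM and SPI1 had means of 253, 351 and 347 CPM in DNMAML un, CD14 and CD68 means of 3.98 and 0.705 CPM, and MRC1 had no count in any of the 6. The summed level of the 20 monocyte and macrophage markers was 4460 to 4790 CPM without IL-4 and 3660 to 4460 CPM with it. The 18 T and NK cell markers summed to 124 to 133 CPM without IL-4 and to 106 to 127 CPM with it. TRAC (73.7 to 91.7 CPM) and CD6 (12.7 to 22.9 CPM) made up most of this sum, with CD2 and CD8B at 0. The 12 B and plasma cell markers summed to at most 15.8 CPM, most of it CD79A and PAX5, with MS4A1, VPREB1 and TNFRSF17 at 0. The 15 granulocyte and progenitor markers summed to 128 to 180 CPM, mostly ELANE, PRTN3 and AZU1. The 17 fibroblast, epithelial and endothelial markers summed to 738 to 835 CPM, mostly PECAM1 (599 to 692 CPM) and COL1A1 (89.6 to 149 CPM). The 15 erythroid and megakaryocyte markers summed to at most 23.1 CPM. One of the DNMAML libraries stood apart. DNMAML IL4 number 3 had 25322 genes with at least 1 count, against 21067 to 23179 in the other 17, and its mitochondrially encoded genes took 0.665% of its counts against 1.32% to 2.98%. The 23179 genes were those of IRES un number 3, and the remaining libraries had at most 21557. The counts of calls in the response, in the gene lists, in the differences between responses and in the check on IRES cells with IL-4 are also given without DNMAML IL4 number 3.

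IL-4 changed 1496 of the 15037 genes tested in DNMAML cells at an adjusted p under 0.05 (9.95%), 753 higher (5.01%) and 743 lower (4.94%). The number rested on the experiment term: without it 493 genes were called, 324 higher and 169 lower, so that 65.7% of the calls were higher against 50.3% with the term. In these bulk libraries a change in the number of cells of a kind and a change in RNA per cell cannot be told apart. The rises were the larger changes. Of the 281 called genes that moved at least 2-fold (1.87% of genes tested), 218 rose and 63 fell, while the median log2 change over all tested genes was -0.01. Leaving out DNMAML IL4 number 3 gave 1121 calls, 631 higher and 490 lower, of which 1063 were among the 1496. Leaving out DNMAML un number 3 gave 1119. The share of all genes called, 9.95%, is the background for the counts of called members in the gene lists that follow. Groups did not overlap between libraries in 2122 of all genes tested (14.1%). Among the 1496 called genes the number was 1026 (68.6%), and among the 281 it was 242 (86.1%). Separate groups are thus common among called genes and add little to a call. The plot of change against level places both kinds of call among all genes.

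**Figure D1:**
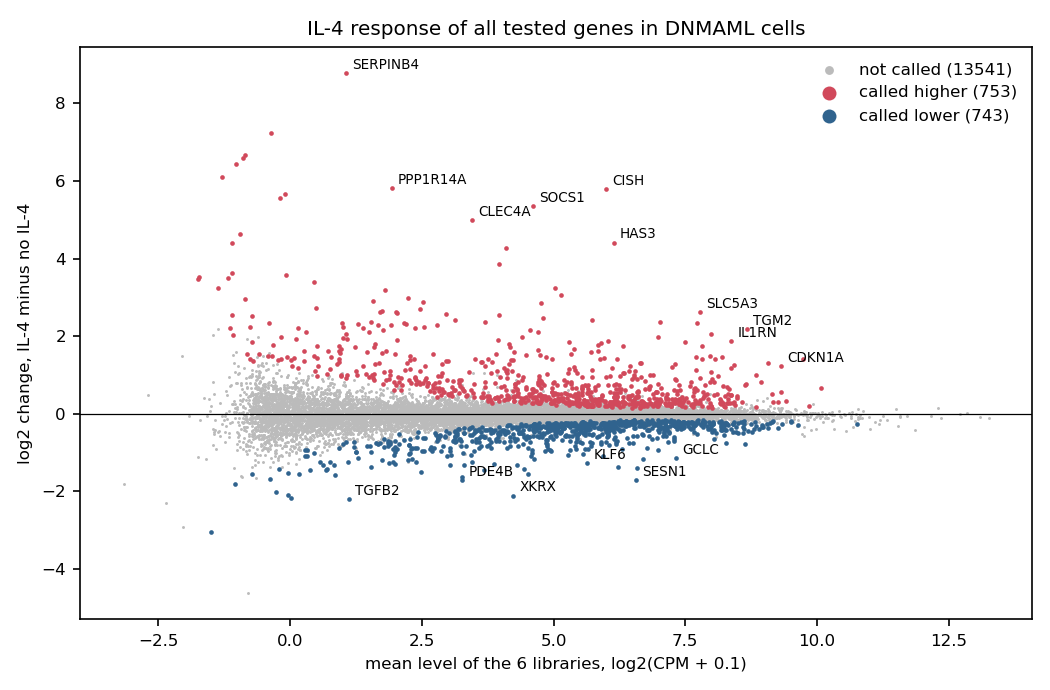
Log2 change with IL-4 in DNMAML cells (y axis) against the mean level of the 6 libraries as log2(CPM + 0.1) (x axis) for the 15037 genes tested. Red points are the 753 genes called higher and blue points the 743 called lower, and the called genes reach further above 0 (SERPINB4, 8.78) than below it (lowest call -3.04).

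The genes with the largest called rises began with a pair of neighbouring serpins, inhibitors of serine and cysteine proteases. SERPINB4 had no count in the 3 DNMAML un libraries and 4.56, 3.49 and 3.85 CPM in DNMAML IL4, 172 counts in all. Set against a floor of 3 counts over the unstimulated group, this was at least 55.8-fold higher. SERPINB3 likewise went from 0 to 59 counts, at least 19.1-fold. SERPINB3 and SERPINB4 are near-identical, so how their reads were divided between them is uncertain. Their sum does not depend on that division, but any reads left unassigned because they match both genes are not in it.

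CISH and SOCS1, both feedback inhibitors of JAK-STAT signalling, were among the 15 largest rises. CISH, an SH2-domain protein that is induced by STATs and dampens cytokine receptors, went from 2.66, 2.12 and 1.88 CPM in DNMAML un to 151, 108 and 114 CPM in DNMAML IL4. The groups were far apart, with a log2 change of 5.79 ± 0.12 and adjusted p = 1.55e-18. SOCS1, which inhibits JAK kinases directly, stood at 0.933, 1.54 and 0.978 CPM and then at 56.8, 36.4 and 49.6 CPM, a log2 change of 5.36 ± 0.20 (adjusted p = 2.39e-12). Every IL-4 library was above every unstimulated one for both genes. The rule for the 15 largest changes in each direction took only genes with separate groups. SOCS3, better known as a brake on gp130 cytokines, rose by 1.09 ± 0.19 (adjusted p = 0.00105) and the phosphatase PTPN1 by 0.55 ± 0.055 (adjusted p = 2.57e-07). Of 23 feedback inhibitors tested 5 rose and 3 fell and 15 were not called, a median log2 change of 0.00, and 6 of those 8 calls held whichever DNMAML library was left out. Those that fell included SH2B3, an adaptor that restrains cytokine receptor kinases (-0.46 ± 0.065, adjusted p = 3.13e-05), and SPRY2, an inhibitor of receptor tyrosine kinase signalling (-0.48 ± 0.09, adjusted p = 0.00122). SH2B3 and SPRY2 were not called without the experiment term (adjusted p 0.3 to 0.665).

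The promoters of 4 genes called higher are shown as examples of a STAT-type palindrome, picked after the search because each holds one. CISH is the gene with the smallest adjusted p here, STAT5A and CCL8 are described below, and STAMBPL1, a deubiquitinase, is among the 15 largest rises. The windows run from 250 bases before to 50 after the RefSeq start on GRCh38.p14, 5′ to 3′ on the gene's strand, with each match in capitals. The motifs searched, TTC and GAA with 4 or with 3 bases of any kind between them, are palindromes, so that one search covers both strands. The spacing of 4 is the one preferred by STAT6, and other STATs also bind the spacing of 3. Each window shown held matches of one spacing alone.
CISH, chr3:50611725-50612024, minus strand: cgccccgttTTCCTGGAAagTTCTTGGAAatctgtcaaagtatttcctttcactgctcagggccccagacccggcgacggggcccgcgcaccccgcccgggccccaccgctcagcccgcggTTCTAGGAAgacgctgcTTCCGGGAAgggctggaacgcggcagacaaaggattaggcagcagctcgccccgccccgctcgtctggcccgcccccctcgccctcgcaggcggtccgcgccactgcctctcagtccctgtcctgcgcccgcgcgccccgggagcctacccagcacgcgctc
CCL8, chr17:34319185-34319484, plus strand: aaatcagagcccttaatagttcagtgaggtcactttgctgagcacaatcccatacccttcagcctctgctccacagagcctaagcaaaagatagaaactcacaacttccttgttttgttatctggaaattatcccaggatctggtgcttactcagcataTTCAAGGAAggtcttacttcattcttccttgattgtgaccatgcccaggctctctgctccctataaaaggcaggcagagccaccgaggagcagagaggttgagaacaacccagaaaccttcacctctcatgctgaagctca
STAMBPL1, chr10:88879995-88880294, plus strand: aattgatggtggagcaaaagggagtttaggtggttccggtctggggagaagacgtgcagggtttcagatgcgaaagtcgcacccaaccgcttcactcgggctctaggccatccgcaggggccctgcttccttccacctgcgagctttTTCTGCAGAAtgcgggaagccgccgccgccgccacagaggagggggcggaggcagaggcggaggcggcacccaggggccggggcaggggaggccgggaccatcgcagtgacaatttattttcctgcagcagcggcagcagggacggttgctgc
STAT5A, chr17:42287189-42287488, plus strand: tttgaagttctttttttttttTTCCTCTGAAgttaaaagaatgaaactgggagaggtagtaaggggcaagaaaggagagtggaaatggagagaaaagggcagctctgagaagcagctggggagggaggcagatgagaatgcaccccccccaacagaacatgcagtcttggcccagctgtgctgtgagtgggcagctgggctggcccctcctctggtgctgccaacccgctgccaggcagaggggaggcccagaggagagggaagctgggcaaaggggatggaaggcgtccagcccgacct
The CISH window held 4 matches with the spacing of 3, beginning 241, 230, 129 and 112 bases before the start, and none with the spacing of 4. CCL8 held 1 match with the spacing of 3, 91 bases before the start. STAMBPL1 and STAT5A each held 1 match with the spacing of 4, 103 and 229 bases before the start. In all 27305 RefSeq promoters of this length, 6.37% held the spacing of 4 and 7.88% the spacing of 3. Of the 30 largest changes 24 had a promoter entry and 2, CISH and STAMBPL1, held either motif. Among the 11091 tested genes with a promoter entry, 10.6% held either motif. Of the other genes searched, CCL8, STAT5A and FCER2 held a match, that of FCER2 with the spacing of 4 and 3 bases before the start, and SERPINB3, TAL1, FCGR2B, IL1RN, IRF8, SOCS3, PPARG and IL4R held none. A comparison of shares between called and other genes was void, since only 75.6% of the genes called higher had a promoter entry.

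The remaining large rises were of varied function. PPP1R14A, an inhibitor of myosin phosphatase, stood at 0, 0.146 and 0.226 CPM without IL-4 and at 7.56, 7.84 and 6.42 CPM with it. HAS3, a hyaluronan synthase, went from 4.80, 10.2 and 4.29 CPM to 134, 136 and 133 CPM, a log2 change of 4.41 ± 0.21 (adjusted p = 1.61e-08). The IL-4 libraries lay within 3 CPM of each other although unstimulated experiment 2 was more than 2-fold above the other 2. TNFRSF19, a TNF receptor superfamily member, rose from 2.06, 1.32 and 1.58 CPM to 37.0, 24.4 and 35.4 CPM. ANKRD22, a small ankyrin-repeat membrane protein, rose from 3.40, 0.805 and 1.96 CPM to 37.5, 14.5 and 35.2 CPM, and its experiment 2 was the lowest in both groups. None of these genes overlapped between groups, by the rule that chose them. SLC5A3, a myo-inositol transporter outside the 15 largest and named after its values were seen, moved from 50.03, 75.3 and 60.3 CPM to 367, 350.3 and 406 CPM (log2 2.61 ± 0.14, adjusted p = 1.92e-08). The other largest rises were LYPD6B, a Ly6-domain protein (log2 3.39), CA7, a carbonic anhydrase (3.25), NIPAL1, a magnesium transporter (3.18), JCAD, a junction protein (2.91), and CCNP, a cyclin (2.89). All 30 largest changes so defined, 15 in each direction, held whichever DNMAML library was left out, which the rule that chose them favours.

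**Figure D2:**
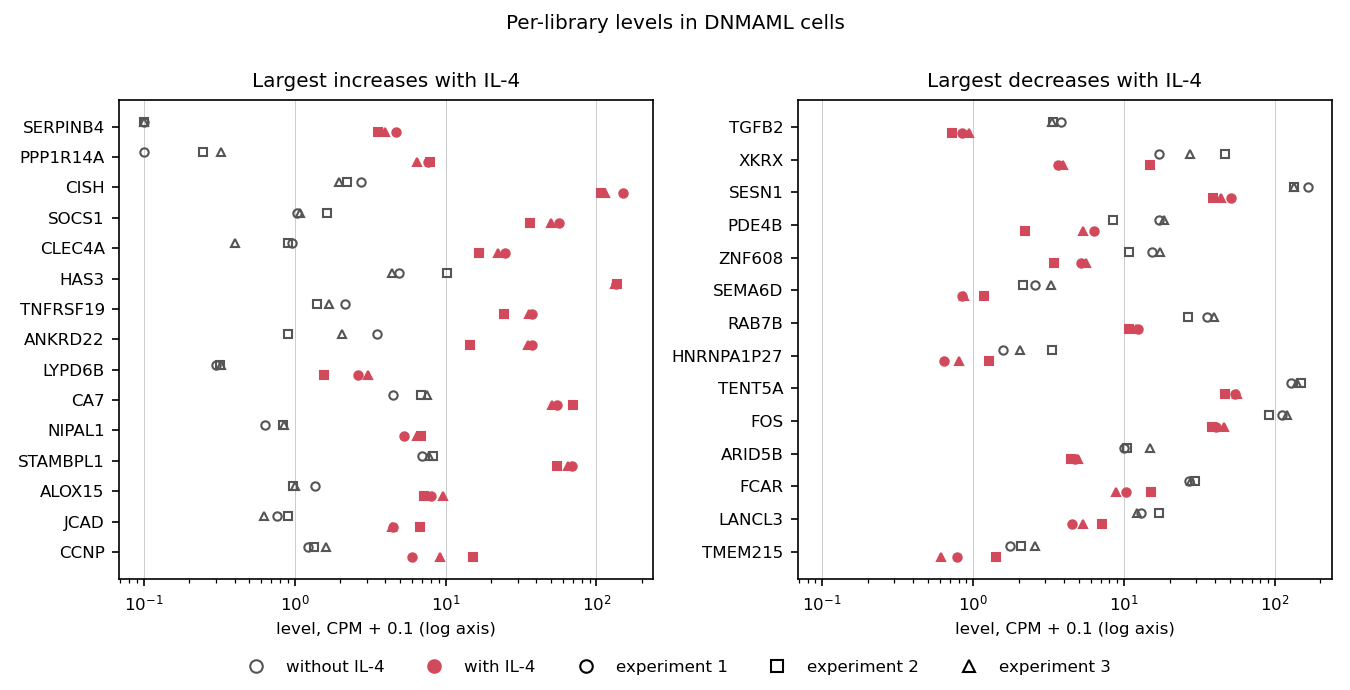
Level as CPM + 0.1 on a log axis of the 15 genes with the largest called rises (left) and 14 of the 15 with the largest called falls (right). Open symbols are DNMAML un, filled red symbols DNMAML IL4, and the shape gives the experiment; for every gene shown the groups are separate, by the rule that chose them.

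The largest falls began with TGFB2, a transforming growth factor beta ligand, at 3.73, 3.29 and 3.24 CPM without IL-4 and 0.749, 0.621 and 0.834 CPM with it (log2 -2.19 ± 0.25, adjusted p = 1.34e-06). SESN1, a sestrin that restrains mTORC1 and is a target of p53 and FOXO factors, went from 165, 134 and 134 CPM to 50.7, 38.5 and 43.8 CPM (log2 -1.70 ± 0.089, adjusted p = 5.92e-11). PDE4B, a phosphodiesterase that breaks down cyclic AMP, went from 17.1, 8.35 and 18.3 CPM to 6.20, 2.09 and 5.26 CPM (log2 -1.70 ± 0.17, adjusted p = 3.8e-07). Groups did not overlap in any of these, by the rule that chose them. FOS, an AP-1 subunit, went from 112, 90.6 and 121 CPM to 40.5, 38.2 and 45.9 CPM (log2 -1.37 ± 0.079), and FCAR, the Fc receptor for IgA, from 26.9, 29.4 and 27.5 CPM to 10.2, 15.1 and 8.79 CPM (log2 -1.32 ± 0.12). RAB7B, a small GTPase of late endosomes, fell by 1.54 on the log2 scale, ARID5B, a chromatin regulator, by 1.33, and ZNF608, a zinc finger protein, by 1.63. Also among the 15 were XKRX (-2.11), SEMA6D (-1.57), TENT5A (-1.40), LANCL3 (-1.32), TMEM215 (-1.31) and HNRNPA1P27 (-1.44), a processed pseudogene whose reads may come from its parent gene. XKRX, PDE4B and HNRNPA1P27 were not called without the experiment term (adjusted p 0.106 to 0.146).

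The receptor and its signal chain changed in parts. Of 19 genes of the receptor and JAK-STAT list tested, 5 rose and 2 fell, with a median log2 change of 0.01. IL4R itself was at 153, 109 and 137 CPM without IL-4 and at 217, 161 and 191 CPM with it, higher in each experiment (log2 0.51 ± 0.11, adjusted p = 0.00502). STAT6, the main transcription factor of the pathway, was at 119, 146 and 122 CPM and then 114, 137 and 112 CPM, with overlapping groups and adjusted p = 0.435. STAT5A rose from 90.1, 73.2 and 94.0 CPM to 143, 122 and 159 CPM (log2 0.72 ± 0.061, adjusted p = 2.52e-08) and STAT3 by 0.47 ± 0.076 (adjusted p = 0.00021). PIK3CD, the catalytic phosphoinositide 3-kinase subunit of leukocytes, rose from 69.0, 101 and 59.4 CPM to 149, 171 and 135 CPM (log2 1.01 ± 0.096, adjusted p = 7.61e-07). The adaptors that link the IL-4 receptor to this kinase fell: IRS1 from 6.46, 8.27 and 7.98 CPM to 3.88, 4.81 and 3.14 CPM (log2 -0.95 ± 0.20) and IRS2 by 0.41 on the log2 scale (adjusted p = 0.000531). JAK3, the kinase bound to the common gamma chain, had a log2 change of 0.61 ± 0.18 and adjusted p = 0.0508, and JAK1 had 0.04 ± 0.061 (adjusted p = 0.839). JAK3 was called by DESeq2 (adjusted p = 0.00227) and by edgeR with no filter (1.05e-10), with a filter of 1 CPM (0.0475) and without DNMAML IL4 number 2 (0.00624). IL4R, STAT3 and IRS2 were not called without the experiment term (adjusted p 0.08 to 0.767).

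Genes known to respond to IL-4 in human monocytes and macrophages made up a list of 43, of which 32 passed the filter on low counts: 15 rose and 2 fell, and the median log2 change was 0.41 against -0.01 over all genes. Without DNMAML IL4 number 3 the counts were 14 and 1. This list was drawn up with earlier results of these libraries known, and is no independent evidence of direction. ALOX15, the 15-lipoxygenase that is a standard marker of IL-4 action in human monocytes, went from 1.27, 0.878 and 0.903 CPM to 7.90, 7.14 and 9.56 CPM (log2 2.99 ± 0.20, adjusted p = 6e-10). TGM2, transglutaminase 2, went from 117, 208 and 127 CPM to 729, 556 and 709.7 CPM (log2 2.19 ± 0.31, adjusted p = 0.000789). IL1RN, the secreted antagonist of interleukin 1, went from 109.9, 158 and 158 CPM to 518, 506 and 526 CPM (log2 1.88 ± 0.15, adjusted p = 2.15e-06). In all 3 the groups were separate, for ALOX15 by the rule for the largest changes. CD209, a dendritic-cell lectin, rose by 1.62 ± 0.23, and CTSC, a lysosomal peptidase, by 0.71 ± 0.068. KLF4, a macrophage transcription factor on this list, fell by 0.87 on the log2 scale (adjusted p = 0.000901).

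Several classical markers of the IL-4-treated macrophage gave no call or too few reads. The chemokine CCL22 was at 69.9, 59.2 and 51.5 CPM without IL-4 and 72.6, 66.6 and 50.8 CPM with it (adjusted p = 0.925), and its relative CCL24 at 2.66, 3.51 and 1.88 CPM and 2.32, 2.95 and 2.37 CPM (adjusted p = 0.924). The lectin CLEC10A, at 0.600, 1.24 and 1.43 CPM and 1.84, 0.543 and 1.35 CPM, gave adjusted p = 0.873. For these 3 the groups overlapped. Among 11 list members below the filter on low counts, MRC1, the mannose receptor, had 0 counts in all 6 libraries. The chemokine CCL13 had 0 counts without IL-4 and 5, 3 and 10 with it, CCL17 had 0 and then 2, 1 and 2, and CCL26 had 0 and then 2, 0 and 6. IRF4, a transcription factor of alternatively activated macrophages, had 3 counts without IL-4 and 13 with it. FOXQ1, a forkhead factor, passed the filter with 0 counts against 38, at least 12.3-fold higher. IGHE, the epsilon heavy chain gene that IL-4 also induces in B cells, named here after its values were seen, had 1 count against 72, a ratio of 70.0 (95% counting interval 12.2 to 2800). Intervals and floors cover counting error only.

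Receptors for the Fc part of antibodies changed in 7 of 11 genes tested, 6 higher and 1 lower, with a median log2 change of 0.60. FCGR2A, an activating low-affinity IgG receptor, went from 35.0, 19.3 and 28.7 CPM to 139, 71.5 and 97.3 CPM (log2 1.88 ± 0.11, adjusted p = 6.69e-10). FCGR2B, the inhibitory one, went from 1.27, 1.10 and 1.35 CPM to 7.15, 4.27 and 6.80 CPM (log2 2.29 ± 0.22, adjusted p = 1.4e-07). FCER2, the low-affinity IgE receptor CD23 that IL-4 is known to induce, had 2 counts without IL-4 and 27 with it, a ratio of 13.1 (95% counting interval 3.30 to 114). Every IL-4 library was above every unstimulated one for all 3. FCGR2A, FCGR2B and FCGR2C are close copies, so the split of reads among them is uncertain. FCGR2C was not called without the experiment term (adjusted p = 0.27). The one that fell was FCAR, given above. Of the 7 calls 5 held whichever library was left out.

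The lectin and interleukin 1 receptor lists held rises and no falls. CLEC4A, an inhibitory C-type lectin of myeloid cells, went from 0.866, 0.805 and 0.301 CPM to 24.7, 16.4 and 22.01 CPM (log2 4.98 ± 0.25, adjusted p = 1.77e-11), with no overlap by the rule for the largest changes. It was 1 of 3 among 12 lectins tested that rose (median log2 change 0.11), beside CD209 and CLEC7A, the beta-glucan receptor dectin-1 (0.71 ± 0.12, adjusted p = 0.000514, groups overlapping, experiment 2 low in both). Of 13 genes of the interleukin 1 family tested 5 rose, a median log2 change of 0.06. IL1R1, the signalling receptor of interleukin 1, went from 1.40, 1.76 and 1.13 CPM to 6.74, 9.93 and 5.33 CPM (log2 2.34 ± 0.18, adjusted p = 5.15e-09). IL18R1, the interleukin 18 receptor, went from 23.3, 37.2 and 23.6 CPM to 70.0, 93.2 and 94.3 CPM (log2 1.63 ± 0.15, adjusted p = 7.37e-06), and its partner IL18RAP rose by 1.41 ± 0.26. IL1RL1, the interleukin 33 receptor, rose by 1.63 ± 0.37 from 0.666, 1.32 and 0.226 CPM to 1.91, 3.34 and 1.80 CPM (adjusted p = 0.00452). Without the experiment term, CLEC7A and IL1RL1 were not called (adjusted p 0.0638 to 0.829).

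Among lipid mediator genes CYSLTR1, the receptor for cysteinyl leukotrienes, went from 111, 109 and 111 CPM without IL-4 to 301, 314 and 303 CPM with it (log2 1.47 ± 0.056, adjusted p = 5.44e-14). PTGER4, a prostaglandin E2 receptor, went the other way, from 40.1, 38.4 and 41.9 CPM to 21.7, 21.5 and 20.0 CPM (log2 -0.93 ± 0.10, adjusted p = 6.84e-07). Neither gene overlapped between groups. Of 19 eicosanoid genes tested 2 rose and 3 fell, with a median log2 change of 0.04, and 3 of the 5 calls held whichever library was left out.

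The genes of both ligands of the checkpoint receptor PD-1 rose. PDCD1LG2 (PD-L2) went from 1.33, 1.10 and 0.828 CPM to 8.85, 4.66 and 6.67 CPM (log2 2.62 ± 0.26, adjusted p = 2.95e-07). CD274 (PD-L1) went from 2.66, 0.732 and 1.58 CPM to 6.88, 4.19 and 7.70 CPM (log2 1.90 ± 0.24, adjusted p = 9.5e-06). ICOSLG, the ligand of the T cell co-stimulator ICOS, fell from 16.1, 13.8 and 16.5 CPM to 9.06, 8.15 and 8.15 CPM (log2 -0.87 ± 0.11, adjusted p = 5.85e-06). All 3 were separate between groups and these 3 calls held whichever library was left out. In the list of MHC class II and co-stimulation genes, 3 of 16 tested rose and 2 fell (31.2% called against 9.95% of all genes), with a median log2 change of -0.12. Without DNMAML IL4 number 3 the counts were 2 and 2 and the median -0.03.

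Chemokine genes changed in 8 of 19 tested, 5 higher and 3 lower, with a median log2 change of 0.02. CCL4, a chemokine that attracts monocytes and T cells, was at 0.799, 4.54 and 1.28 CPM without IL-4 and 6.06, 26.1 and 7.32 CPM with it, a rise of 2.56 ± 0.23 on the log2 scale (adjusted p = 9.7e-08). CCL3, its close relative, was at 15.1, 60.5 and 20.8 CPM and 33.8, 107 and 41.3 CPM (log2 0.95 ± 0.17, adjusted p = 0.00177). Both have close copies in the genome with which reads may be shared. Experiment 2 was the highest in both groups for both genes, and for CCL3 the groups overlapped. CXCL8, the neutrophil attractant interleukin 8, went from 18.7, 46.1 and 28.9 CPM to 6.61, 20.3 and 9.18 CPM (log2 -1.43 ± 0.25, adjusted p = 0.00238). CCL20, the ligand of CCR6, went from 11.6, 27.2 and 16.8 CPM to 4.36, 12.4 and 4.17 CPM (log2 -1.46 ± 0.17, adjusted p = 2.26e-06). Both were lower with IL-4 in each experiment, and experiment 2 was again the highest. CCL8, a monocyte attractant, had 1 count without IL-4 and 68 with it, a ratio of 66.1 (95% counting interval 11.5 to 2650). CCL4, CCL3, CXCL8 and CCL20 were not called without the experiment term (adjusted p 0.175 to 0.804). ACKR3, an atypical receptor that scavenges CXCL12, fell from 1.87, 0.805 and 1.81 CPM to 0.204, 0.388 and 0.385 CPM (log2 -2.18 ± 0.48, adjusted p = 0.00375).

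Sensors of microbial products and the NF-kappaB list held both directions. Of 23 pattern recognition receptors and adaptors tested 2 rose and 6 fell, with a median log2 change of -0.03. TLR4, the receptor for lipopolysaccharide, went from 36.5, 33.4 and 42.6 CPM to 17.8, 23.5 and 21.3 CPM (log2 -0.84 ± 0.13, adjusted p = 0.000173), and TLR6, a partner of TLR2, from 69.3, 61.2 and 75.2 CPM to 45.6, 45.2 and 43.6 CPM (log2 -0.61 ± 0.081). Both groups were separate. NOD2, a cytoplasmic sensor of bacterial wall fragments, went from 8.53, 4.98 and 7.67 CPM to 22.3, 13.4 and 17.8 CPM (log2 1.34 ± 0.14, adjusted p = 5.69e-07). Of 27 inflammatory and NF-kappaB genes tested 3 rose and 5 fell, a median log2 change of -0.06. NFKB1, the p105 and p50 subunit gene, rose by 0.45 ± 0.062 (adjusted p = 2.46e-05). TNFAIP3, an inhibitor of NF-kappaB signalling, fell by 0.74 on the log2 scale (adjusted p = 0.00167), NFKBIZ, a nuclear cofactor of NF-kappaB, by 0.83 (adjusted p = 0.00155), and the cytokine gene IL23A by 0.97 (adjusted p = 0.00334). IL23A was not called without the experiment term (adjusted p = 0.109).

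Interferon-stimulated genes gave a single call. Of 36 interferon-stimulated genes tested 1, GBP1, was called (2.78% against 9.95% of all genes). GBP1, a guanylate-binding protein, was at 7.26, 2.34 and 8.58 CPM without IL-4 and 22.3, 3.57 and 24.1 CPM with it (log2 1.40 ± 0.21, adjusted p = 0.000153, and 0.621 without the experiment term), and experiment 2 was low in both groups. The list's median log2 change was 0.03, and -0.14 without DNMAML IL4 number 3. IFIT1, an antiviral RNA-binding protein, shows the spread: 38.5, 6.59 and 99.9 CPM without IL-4 and 39.1, 4.81 and 97.0 CPM with it, low in experiment 2 and high in experiment 3 in both groups. IRF8, an interferon regulatory factor central to monocytes and dendritic cells, rose from 15.2, 4.83 and 8.95 CPM to 34.5, 22.7 and 27.7 CPM (log2 1.59 ± 0.17, adjusted p = 5.88e-06, and 0.0556 without the experiment term). IRF2, a repressor of interferon genes, fell by 0.51 on the log2 scale (adjusted p = 3.19e-05).

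Transcription factors of the AP-1 and Kruppel-like families changed in both directions, 6 higher and 9 lower of 39 tested, with a median log2 change of -0.06. The rises included the BATF proteins, AP-1 members that act with IRF factors. BATF3 went from 0.600, 1.17 and 0.903 CPM to 6.54, 4.11 and 5.71 CPM (log2 2.62 ± 0.27, adjusted p = 3.15e-07), and BATF from 7.86, 9.30 and 8.35 CPM to 28.5, 36.4 and 36.0 CPM (log2 1.98 ± 0.13, adjusted p = 4.33e-10). ATF3, a stress-induced repressor of inflammatory genes, rose by 1.17 ± 0.12 (adjusted p = 3.85e-06). FOS fell, as given above, and KLF6, a factor that favours inflammatory gene expression in macrophages, went from 65.4, 79.1 and 65.4 CPM to 22.4, 38.8 and 27.7 CPM (log2 -1.26 ± 0.13, adjusted p = 6.58e-06). None of these genes overlapped between groups, for FOS by the rule for the largest changes. Of the 15 calls 14 held whichever library was left out.

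Haematopoietic lineage factors changed in 15 of 40 tested, 7 higher and 8 lower, with a median log2 change of -0.04. TAL1, a basic helix-loop-helix factor of blood stem and erythroid cells, went from 4.93, 2.78 and 4.82 CPM to 21.4, 21.1 and 22.7 CPM (log2 2.37 ± 0.15, adjusted p = 3.96e-10). CEBPA, a factor of myeloid commitment, rose in each experiment, from 221, 145 and 173 CPM to 407, 263 and 338 CPM (log2 0.90 ± 0.063, adjusted p = 1.13e-09). ZEB2, a factor of macrophage identity, fell from 182, 148 and 169 CPM to 88.9, 93.4 and 78.1 CPM (log2 -0.93 ± 0.08, adjusted p = 5.65e-08). Groups were separate for these 3 genes. The separate list of MYC network and ribosome synthesis genes gave 5 rises and 3 falls of 25 tested, with a median log2 change of 0.03. Of these calls 2 held whichever DNMAML library was left out, and without DNMAML IL4 number 3 the counts were 3 and 2. MYC, a growth regulator that is also a Notch target, fell by 0.52 on the log2 scale (adjusted p = 0.00658) and its relative MYCL by 1.24 (adjusted p = 8.12e-06). Neither was called without the experiment term (adjusted p 0.147 to 0.45).

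Nuclear receptors and lipid genes split 5 higher and 6 lower of 28 tested, with a median log2 change of -0.04. Of these 11 calls 4 held whichever library was left out, and without DNMAML IL4 number 3 the counts were 4 and 3. PPARG, the lipid-sensing receptor that IL-4 is known to raise in macrophages, went from 11.5, 8.05 and 14.2 CPM to 27.4, 20.2 and 21.4 CPM (log2 1.04 ± 0.13, adjusted p = 5.71e-06). VDR, the vitamin D receptor, went from 44.2, 41.5 and 43.7 CPM to 82.2, 85.7 and 83.7 CPM (log2 0.96 ± 0.065, adjusted p = 6e-10), with libraries of each group close together. RARA, a retinoic acid receptor, rose by 0.56 ± 0.084 (adjusted p = 6.82e-05). PLIN2, the lipid droplet coat protein, fell from 61.8, 63.0 and 65.2 CPM to 29.6, 28.5 and 34.7 CPM (log2 -1.03 ± 0.10, adjusted p = 5.94e-07). None of the 4 overlapped between groups. In redox metabolism GCLC, the catalytic subunit of the rate-limiting enzyme of glutathione synthesis, fell from 206, 265 and 190.1 CPM to 91.8, 125 and 82.5 CPM (log2 -1.15 ± 0.09, adjusted p = 4.03e-08), while SLC7A11, the cystine importer, rose by 0.81 ± 0.12 (adjusted p = 0.000208). Of the 23 arginine, polyamine and redox genes tested 3 rose and 3 fell (median log2 change -0.01), and ARG1 had 0 counts in all 6 libraries.

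Growth arrest and death genes of the p53 list changed in 10 of 28 tested, 4 higher and 6 lower, with a median log2 change of -0.12. CDKN1A, the p21 inhibitor of cyclin-dependent kinases, went from 338, 399.9 and 412 CPM to 852, 951 and 868 CPM (log2 1.22 ± 0.071, adjusted p = 6.39e-11). FAS, a death receptor, went from 2.60, 2.71 and 3.54 CPM to 5.86, 7.29 and 6.61 CPM (log2 1.16 ± 0.16, adjusted p = 2.81e-05). SESN1 fell, as given above, and so did PHLDA3, an inhibitor of AKT (-0.84 ± 0.13, adjusted p = 8.13e-05, and 0.188 without the experiment term). Of the 10 calls 6 held whichever library was left out. Cell cycle genes gave 0 rises and 5 falls among 43 tested (11.6% against 9.95%), with a median log2 change of -0.11, and 2 of the falls remained called without DNMAML IL4 number 3.

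Genes of matrix, adhesion and TGF-beta signalling gave isolated large changes. The matrix and hyaluronan list gave 3 rises and 1 fall of 27 tested (14.8% called against 9.95% of all genes). The integrin and adhesion list gave 4 and 2 of 26, and the list of serpins and other protease inhibitors 4 and 0 of 21. VCAN, the proteoglycan versican, went from 0.466, 1.10 and 1.13 CPM to 2.66, 4.11 and 5.65 CPM (log2 2.20 ± 0.28, adjusted p = 6.06e-06). VCAM1, an adhesion ligand of integrin alpha 4, went from 2.46, 1.68 and 2.56 CPM to 11.7, 5.20 and 17.3 CPM (log2 2.29 ± 0.20, adjusted p = 3.62e-08), lowest in experiment 2. SPINT2, a membrane inhibitor of serine proteases, went from 167, 123 and 142 CPM to 389.7, 315 and 456 CPM (log2 1.42 ± 0.071, adjusted p = 4.41e-12). All 3 rose with no overlap. In the TGF-beta list 4 of 29 tested rose and 7 fell, with a median log2 change of -0.06. ACVR1, a type I receptor for bone morphogenetic proteins and activin, rose by 1.03 ± 0.11 (adjusted p = 1.61e-06), and TGFBR1, the type I TGF-beta receptor, fell by 0.60 on the log2 scale (adjusted p = 7.22e-07). ENG, a TGF-beta co-receptor, fell by 0.32 (adjusted p = 0.00106) and TGIF1, a SMAD co-repressor, by 0.45 (adjusted p = 0.000136). In the TNF superfamily list 4 of 29 tested rose and 5 fell, with a median log2 change of -0.05. TNFRSF11A, the receptor RANK, was among the rises, by 1.74 ± 0.27 from 1.20, 0.586 and 0.677 CPM to 3.06, 2.48 and 2.82 CPM (adjusted p = 0.000114).

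Metabolic and stress lists held few changes of size. EGLN3, an oxygen-sensing prolyl hydroxylase, went from 2.80, 1.68 and 3.69 CPM to 19.9, 8.30 and 15.7 CPM (log2 2.41 ± 0.23, adjusted p = 4.85e-07), and HIF1A, its substrate, rose by 0.36 ± 0.07 (adjusted p = 0.00116). They were among 6 rises and 3 falls in 36 glycolysis and hypoxia genes, of which 3 calls held whichever library was left out. SLC7A5, a large amino acid transporter, rose by 0.83 ± 0.071 (adjusted p = 2.76e-08). Sterol synthesis gave 1 rise and 2 falls in 24 genes, 12.5% called and near the 9.95% of all genes, and STARD4, a cholesterol carrier, fell by 0.57 on the log2 scale (adjusted p = 6.11e-05). Of the 13 mitochondrially encoded genes 0 were called by edgeR or DESeq2, 0 at an unadjusted p under 0.05 with either, and their median log2 change went from -0.38 to 0.01 when DNMAML IL4 number 3 was left out. Without the experiment term the list counts were lower: 14 rises and 1 fall in the IL-4 response list, 4 and 0 in the feedback list, 3 and 1 in the Fc receptor list, 4 and 3 in both the AP-1 and the lineage lists, 1 and 0 in the chemokine list and 0 and 0 in both Notch lists. The plot of gene lists shows the counts with the term side by side.

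**Figure D3:**
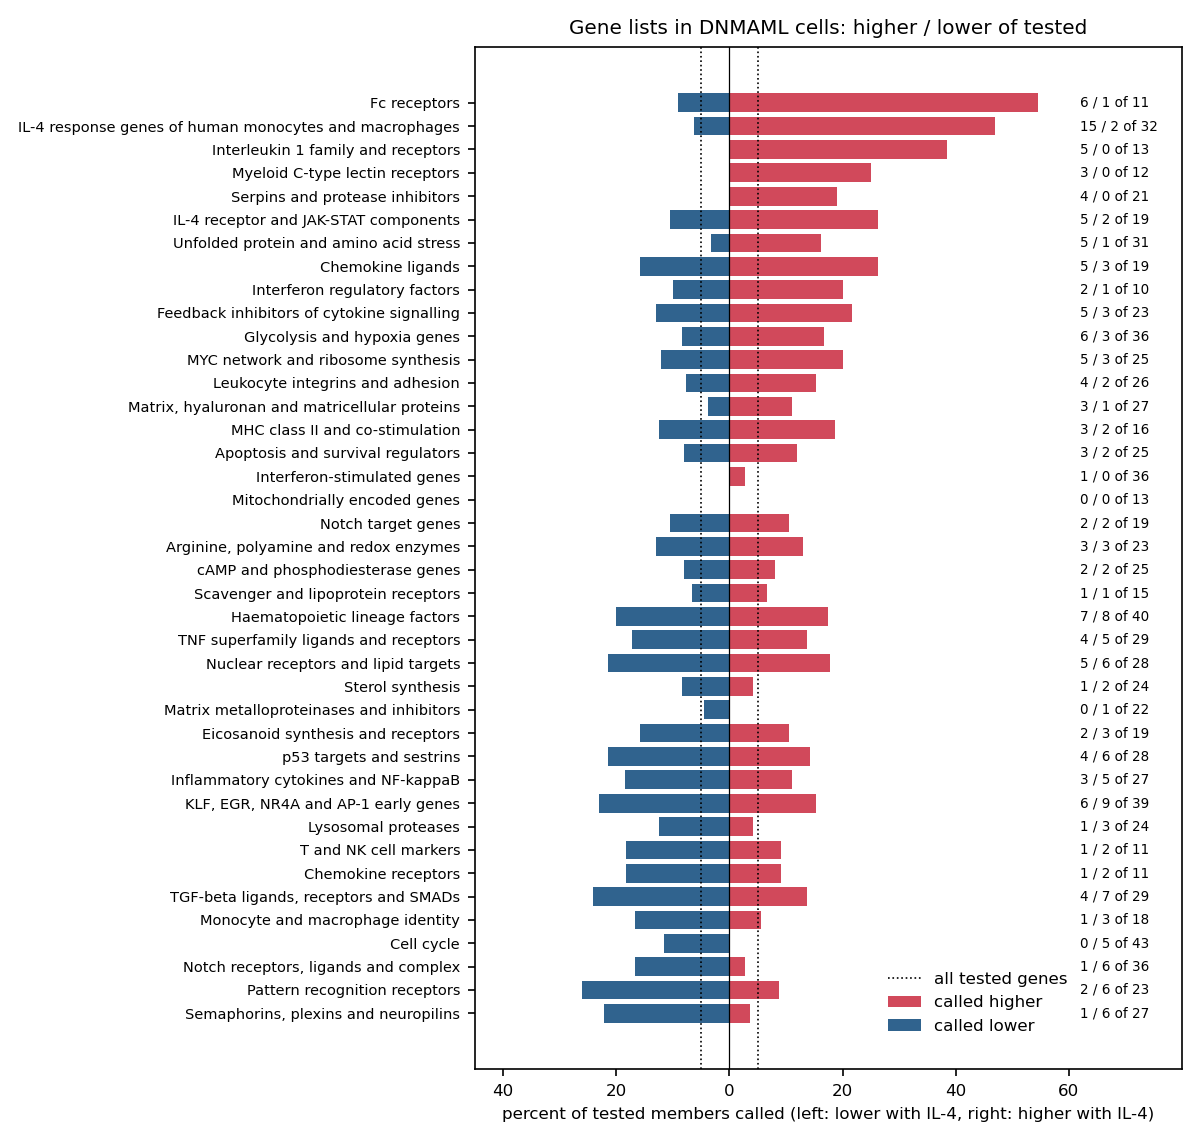
Percent of the tested members of each gene list called higher (red, to the right) or lower (blue, to the left) with IL-4 in DNMAML cells, with the counts at the right edge. Dotted lines mark the share of all tested genes, 5.01% higher and 4.94% lower; the Fc receptor bar (6 of 11) and the IL-4 response bar (15 of 32) reach furthest to the right.

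Notch genes themselves were examined under IL-4 in these cells. NOTCH1 was at 133, 178 and 145 CPM without IL-4 and 155, 237 and 171 CPM with it, higher in each experiment although the groups overlapped (log2 0.30 ± 0.056, adjusted p = 0.000817). LFNG, a glycosyltransferase that tunes Notch for its ligands, fell from 16.1, 27.2 and 18.4 CPM to 5.93, 13.03 and 6.87 CPM (log2 -1.29 ± 0.16, adjusted p = 1.05e-05). DLL1, a Notch ligand, fell from 41.9, 46.9 and 42.6 CPM to 23.4, 31.7 and 27.9 CPM (log2 -0.67 ± 0.12, adjusted p = 0.000554). For LFNG and DLL1 all IL-4 libraries were below the unstimulated ones. None of the 3 was called without the experiment term (adjusted p 0.18 to 0.715). Of 36 receptors, ligands and complex members tested 1 rose and 6 fell (19.4% called, median log2 change -0.07), and 3 of the 7 calls held whichever library was left out. Of 19 Notch target genes tested 2 rose and 2 fell (21.1% called against 9.95% of all genes), with a median log2 change of -0.37 against -0.01 over all genes. HES1 was at 5.995, 16.5 and 7.22 CPM and 4.84, 12.1 and 5.90 CPM, lower with IL-4 in each experiment but not called (log2 -0.37 ± 0.21, adjusted p = 0.351). HEY1, a related repressor, went from 1.80, 2.27 and 1.505 CPM to 3.00, 3.96 and 3.92 CPM with no overlap (log2 0.95 ± 0.23, adjusted p = 0.00786). The HEY1 call was lost without DNMAML un number 3 (adjusted p = 0.0795) and without the experiment term (adjusted p = 0.161).

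The effect of DNMAML IL4 number 3 was measured in detail because of its extra genes. With at least 2 counts it had 19911 genes and with at least 5 it had 16328. It was the sole library with a count for 2079 genes, against 1102 for IRES un number 3 and 206 or fewer for each of the rest. Of the 2079 genes, 1814 had 1 count and 49 had 3 or more. These genes took 0.016% of its counts and none was among those tested. In it 30.9% of reads were not assigned to a gene, for whatever reason, against 23.8% to 27.7% in the others. Reads counted as overlapping no gene made up 6.72%, against 3.79% to 5.94% in the others. Genes that stood highest in it over the other IL-4 libraries were led by RN7SL2, a signal recognition particle RNA, at 13.9, 8.22 and 37.0 CPM in DNMAML IL4 experiments 1 to 3, followed by IFIT1. Next came the interferon-stimulated genes IFIT2, IFI27, ISG15, IFI44 and IFI44L, the pseudogene RPL15P3, CFAP92 and NLRP12. IFIT1 was also at 99.9 CPM in the unstimulated library of the same experiment, and ISG15 at 46.5, 18.6 and 96.1 CPM in DNMAML IL4 was at 54.7, 19.5 and 91.0 CPM in DNMAML un. The lowest in it were mitochondrial transcripts such as MT-ND2, at 843, 1167 and 163 CPM. NLRP12, a regulator of NF-kappaB, was the called gene in the 10 highest: it was at 3.73, 4.39 and 4.66 CPM without IL-4 and 1.98, 1.24 and 4.04 CPM with it, and its log2 change of -0.85 ± 0.27 (adjusted p = 0.0492) was -1.25 without the library (adjusted p = 0.0162). The NLRP12 call was lost without DNMAML un number 1 (adjusted p = 0.0508), un number 2 (0.256), IL4 number 1 (0.198) or IL4 number 2 (0.168). Over the 281 genes called with at least a 2-fold change, leaving the library out moved the log2 change by a median of 0.08, and by more than 0.5 in 1 gene.

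Left out, the library changed the counts of rises and falls in most gene lists. They became 4 and 2 in both the receptor and the feedback list, 5 and 1 in the Fc receptor list, 5 and 2 in the chemokine list and 2 and 2 in the eicosanoid list. Pattern recognition receptors then gave 1 and 6, inflammatory and NF-kappaB genes 2 and 5, lineage factors 7 and 6, p53 genes 3 and 6, and the TGF-beta list 3 and 5. The glycolysis and hypoxia list gave 5 and 1, the arginine, polyamine and redox list 3 and 1, the Notch receptors and ligands 1 and 4, and the Notch targets 1 and 2 (median log2 change -0.30). The integrin and adhesion list gave 3 and 2 and the protease inhibitor list 3 and 0. The counts were as before in the lectin, interleukin 1, interferon-stimulated, AP-1, sterol, matrix and TNF superfamily lists.

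**Figure D4:**
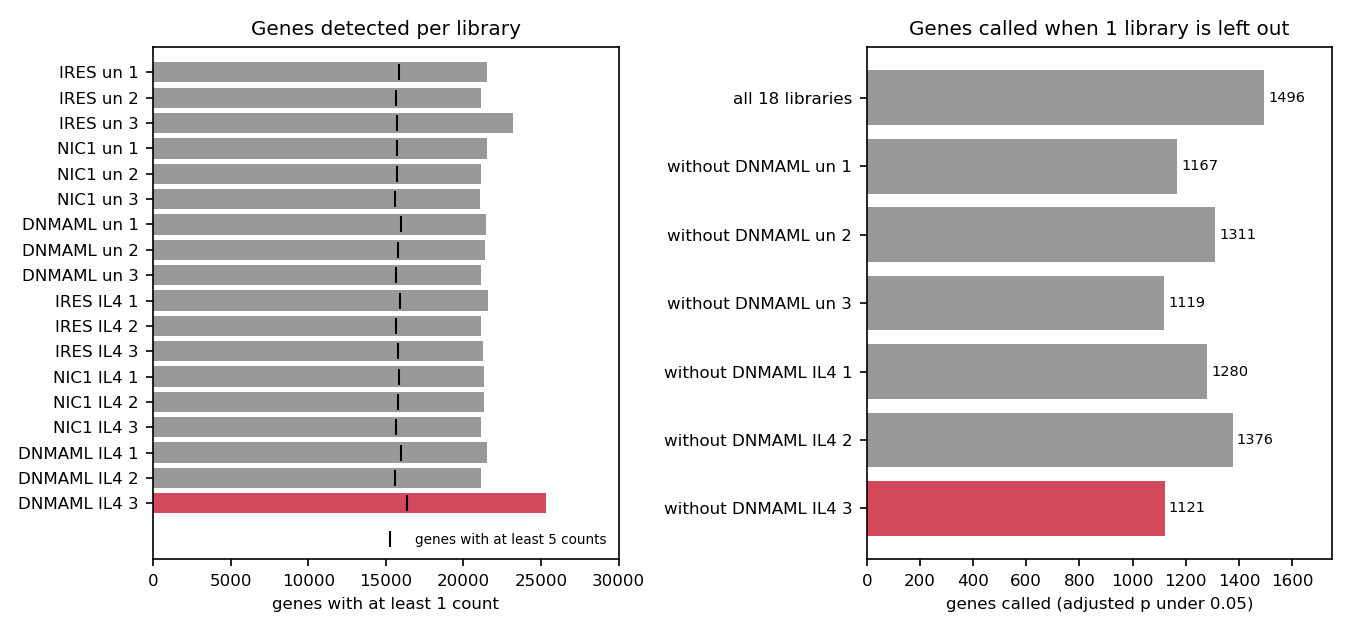
Left, genes with at least 1 count (bars) and with at least 5 counts (ticks) in each of the 18 libraries, DNMAML IL4 number 3 in red. Right, genes called in the IL-4 response of DNMAML cells with all libraries (1496) and with each DNMAML library left out in turn (1119 to 1376).

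The response of DNMAML cells was then set against those of IRES and NIC1 cells by the difference between the responses. Against IRES cells 0 of 15037 genes differed at an adjusted p under 0.05 in edgeR (0%), with 237 at an unadjusted p under 0.05. DESeq2 also called 0, with 81 unadjusted. Against NIC1 cells edgeR called 0 (0%), with 610 unadjusted, and DESeq2 called 3, EGLN3, BCL7A and F13A1. The edgeR counts of 237 and 610 were both below the 752 expected by chance, so 0 calls do not show that the responses were equal. IL-4 changed 1360 genes (9.04%) in IRES cells and 1323 (8.80%) in NIC1 cells. Of the 281 genes with a called 2-fold change in DNMAML cells, 246 were called in the same direction in IRES cells and 236 in NIC1 cells. For these 281 the edgeR difference had an unadjusted p under 0.05 in 13 against IRES and 47 against NIC1, with 14 expected at the nominal rate. Over all genes the test stayed below that rate, with 237 and 610 against 752, so 14 is not a fair background for the 13 and 47. The same DNMAML libraries chose the 281, so the 13 and 47 are no independent test. A call in one group and none in another does not show that the groups differ. The median SE of the difference was 0.14 over all genes and 0.34 (IRES) and 0.33 (NIC1) for the 281. A difference of several SE could still miss the threshold after adjustment over all genes, as did EGLN3 against NIC1 cells, described with its values further on. Without DNMAML IL4 number 3 edgeR called 0 against either, with 243 (IRES) and 420 (NIC1) unadjusted.

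The values of main response genes in the 3 constructs are given side by side. The log2 change of CISH was 5.79 ± 0.12 in DNMAML, 6.16 ± 0.13 in IRES and 5.61 ± 0.12 in NIC1 cells, and the difference from IRES was -0.37 ± 0.25 (adjusted p = 1). SOCS1 changed by 5.36 ± 0.20, 5.71 ± 0.21 and 5.17 ± 0.20 in the same order, and ALOX15 by 2.99 ± 0.20, 3.31 ± 0.20 and 3.58 ± 0.20. SESN1 changed by -1.70 ± 0.089, -1.67 ± 0.089 and -1.57 ± 0.088. For LFNG the values were -1.29 ± 0.16, -0.86 ± 0.15 and -0.67 ± 0.14, with differences of -0.43 ± 0.22 from IRES (adjusted p = 1) and -0.62 ± 0.21 from NIC1 (adjusted p = 0.998). For HES1 they were -0.37 ± 0.21, -0.08 ± 0.18 and -0.02 ± 0.16, with differences of -0.29 ± 0.27 (adjusted p = 1) and -0.35 ± 0.26 (adjusted p = 0.998). None of these differences was called.

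The differences of smallest p against NIC1 cells were led by EGLN3, whose rise was described above. The log2 change of EGLN3 was 2.41 ± 0.23 in DNMAML, 1.56 ± 0.23 in IRES and 0.39 ± 0.22 in NIC1 cells. Its mean level was 2.72 ± 1.00 CPM (SD, n = 3) in DNMAML un and 14.6 ± 5.86 in DNMAML IL4, against 6.15 ± 0.299 and 8.19 ± 2.58 in NIC1 cells. The difference in response was 2.02 ± 0.32 (adjusted p = 0.0593), and it was called by DESeq2 (adjusted p = 2.39e-05) and, in edgeR, without DNMAML IL4 number 2 (adjusted p = 0.0309). BCL7A, a subunit of SWI/SNF chromatin complexes, had log2 changes of -0.02 ± 0.071 in DNMAML against 0.56 ± 0.067 in NIC1 cells (difference -0.58 ± 0.098, adjusted p = 0.0593). The 3 others of smallest p had differences of -0.96 ± 0.19 for EPAS1, a hypoxia-inducible factor, -0.49 ± 0.10 for MAP3K14, the kinase NIK, and -0.73 ± 0.15 for F13A1, a coagulation factor subunit (adjusted p 0.291, 0.417 and 0.55).

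Against IRES cells the 5 differences of smallest p all had an adjusted p of 1. CBARP, a regulator of calcium channels, had log2 values of 0.01 ± 0.11 in DNMAML and 0.66 ± 0.11 in IRES cells (difference -0.64 ± 0.15). ACY1, an aminoacylase, had 1.47 ± 0.42 and -0.81 ± 0.40 (difference 2.29 ± 0.58). DNM1P47, a pseudogene, had a difference of 2.44 ± 0.65, TMEM71, a membrane protein, of 1.54 ± 0.43, and NPW, a neuropeptide precursor, of -0.53 ± 0.15. These comparisons use the same DNMAML libraries as the response itself, and are no separate support for it.

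**Figure D5:**
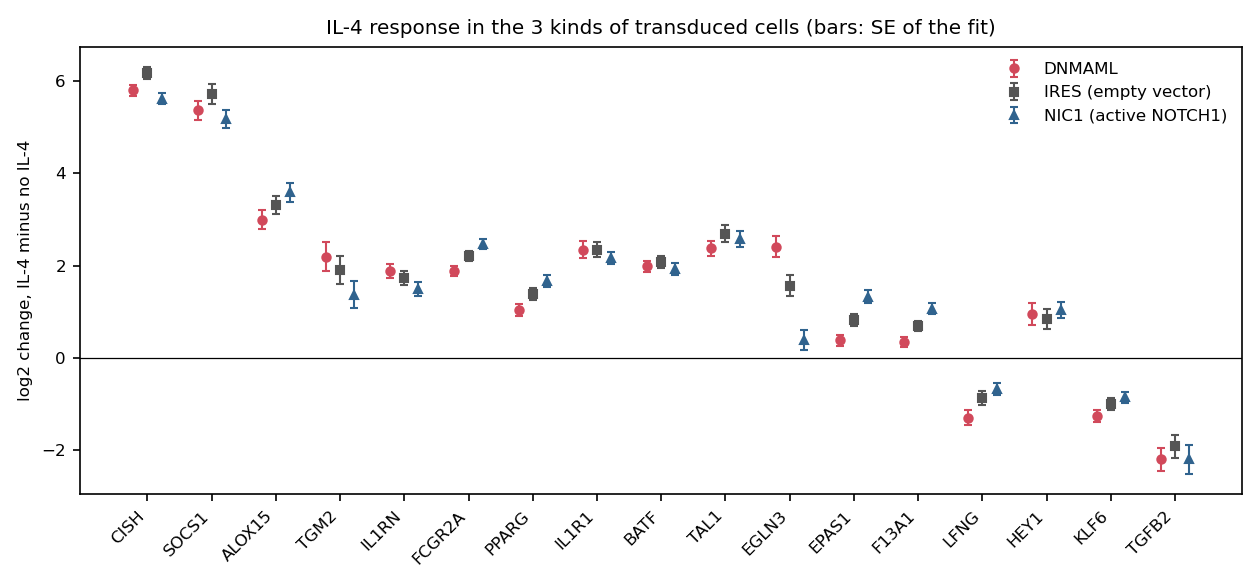
Log2 change with IL-4 (y axis) of 17 genes in DNMAML (red circles), IRES (grey squares) and NIC1 cells (blue triangles), with bars for the SE of the fit. CISH lies near 6 in all 3, and EGLN3 has the widest gap of those shown, 2.41 in DNMAML and 0.39 in NIC1 cells.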

How the data were processed

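RNA of 18 THP-1 libraries was sequenced, and the authors deposited raw counts of reads per gene for each library, in one table of 58051 genes per library. The submitters' processing notes name HISAT2 and HTSeq, as well as Trimmomatic, FastQC and DESeq2, and the build GRCh38.p12, and give no versions; whether counting used strand is not given in the sources used here, so reads of antisense or overlapping genes may be shared. Gene symbols, types and positions came from GENCODE v29 (GRCh38) and promoter windows from RefSeq. Rows that name no gene were left out of library sizes: reads not assigned to a gene, for whatever reason, made up 23.8% to 30.9% of each library.

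The counts were fitted with edgeR 4.0.16 (R 4.3.3) by its quasi-likelihood test on all 18 libraries, with 6 group means, the experiment number as a term, TMM scaling and Benjamini-Hochberg adjustment over the 15037 genes kept by filterByExpr. CPM values use the TMM-scaled library sizes, and each SE is the log2 change divided by the square root of its F statistic. DESeq2 1.42.0 was an alternative. The fit was tested on simulated data. The numbers pair libraries of one experiment per the labels, and in every one of 45 pairs of libraries with the same number the deviations from the group means correlated (r 0.206 to 0.759). The 90 pairs with different numbers gave r from -0.654 to 0.354, so the ranges overlap. Centring 3 libraries on their own mean by itself pushes r between different numbers below 0. How far these correlations rest on experiment 2 was not tested. Gene-assigned counts of 12410668 to 15099788 per library set the counting precision. No pair of libraries of the same group agreed within sampling noise, and other pairs were not compared in this way. The chi-square per degree of freedom was 5.68 to 14.1 between numbers 1 and 3 of a group. It was 22.8 to 50.6 for pairs that held number 2. Members and gene lists were chosen with earlier results of these data known. Genes named were the 15 largest called changes in each direction with separate groups and at least 2 CPM in the higher group, called or defining list members, the called or 5 smallest p in each difference, the 10 genes most above the other replicates in DNMAML IL4 number 3, and MAML1, NOTCH1 and the Notch targets; a few genes that these rules name are not reported here. No conclusion rests on the shares of promoter motifs.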

Additional observations from a re-analysis of the deposited data

Results flagged for a closer look

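The IL-4 response of ACY1, an aminoacylase, went up in all 3 experiments of DNMAML cells and down in all 3 of IRES cells and of NIC1 cells. It was 1.47 ± 0.42 on the log2 scale in DNMAML, -0.81 ± 0.40 in IRES and -0.47 ± 0.41 in NIC1 cells. ACY1 stood at 0.0666 to 1.59 CPM over the 18 libraries, so these directions rest on few counts. The edgeR test of the difference gave adjusted p = 1 against IRES and 0.998 against NIC1, and its call in DNMAML cells (adjusted p = 0.0255) was lost without DNMAML un number 1 (adjusted p = 0.154), DNMAML IL4 number 1 (0.118) or DNMAML IL4 number 3 (0.0834). MAML1 likewise went down with IL-4 in all 3 experiments of DNMAML cells and up in all 3 of NIC1 cells: -0.19 ± 0.075 against 0.08 ± 0.077. The difference of -0.27 ± 0.11 had adjusted p = 0.998.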

How the results depend on the processing

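The number of genes called in the IL-4 response of DNMAML cells was 1496 with the experiment number as a replicate block. It was 493 with no replicate block, 2560 with the block nested in construct, 1936 from the 6 DNMAML libraries alone with the block and 259 from them with no replicate block, and 281 when a 2-fold change was also required. Leaving out each DNMAML library in turn gave 1119 to 1376. Leaving out both libraries with most genes detected, DNMAML IL4 number 3 and IRES un number 3, gave 1018. ACY1, HEY1, IRS1 and TMEM215 were then no longer called by edgeR (adjusted p 0.0504 to 0.0941). DESeq2, other scalings and other filters left the count within 1.5 times of 1496. No called gene named here changed direction under an alternative that was run. Of genes not called, without both libraries with most genes detected MT-ND2 stood at 0.01 and RN7SL2 at -0.06 (log2), and with each DNMAML library left out the values spanned -0.05 to 0.04 for BCL7A, -0.09 to 0.10 for CBARP, -0.16 to 0.30 for CCL22, -0.20 to 0.02 for CCL24, -0.30 to 0.53 for CLEC10A, -0.57 to 0.40 for IFIT1, -0.01 to 0.10 for JAK1, -0.36 to 0.15 for ISG15 and -0.02 to 1.01 for RN7SL2. The difference from IRES cells went from 0 to 1 call with no filter on low counts. The difference from NIC1 cells went from 0 to 3 with DESeq2, 13 with the nested block, 56 with no filter, and 0 to 2 with each library left out, the 2 without DNMAML IL4 number 2. The MAML1 difference without IL-4 was 0.56 with no replicate block (adjusted p = 0.258) and 0.51 to 0.62 with each library left out, the call lost in 1 case. With IL-4 it was 0.44 (adjusted p = 1) and 0.36 to 0.57, the call lost in 5 of 6 cases. In the same contrast, leaving out each library gave -0.05 to 0.18 for NRARP without IL-4, -0.16 to 0.22 with it (-0.07 without both libraries with most genes), and -0.31 to 0.11 for HEY1 with IL-4. Genes detected in DNMAML IL4 number 3 were 25322 with at least 1 count, 19911 with at least 2 and 16328 with at least 5. The cause of these shifts was not tested. Genes under about 1 CPM rest on few counts, and 3 experiments per group limit all tests.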

Other observations

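Some of the risen genes lie beside each other, a pattern noticed after the values were seen. Positions are those of GRCh38 genes. On chromosome 2, IL1R1, IL1RL1, IL18R1 and IL18RAP, receptors of interleukins 1, 33 and 18, lie within 388 kb (chr2:102064544-102452565) and all 4 tested genes of the span rose (2.34, 1.63, 1.63 and 1.41 on the log2 scale). On chromosome 10, 3 of the 4 tested genes of the 194 kb span chr10:88822132-89015785 rose: ANKRD22 (3.87), STAMBPL1 (3.05) and FAS (1.16). The other was ACTA2, smooth muscle actin, at 0.42 ± 0.19 (adjusted p = 0.212). On chromosome 1, the 173 kb span chr1:161505430-161678654 holds FCGR2A (1.88), FCGR2B (2.29), FCGR2C (1.44) and the heat shock gene HSPA6 (2.20), 4 of 5 tested genes called higher, FCGR2C not without the experiment term (adjusted p = 0.27); this region is duplicated, and reads of its copies may be shared. PDCD1LG2 (2.62) and CD274 (1.90) are the 2 tested genes of a 121 kb span, chr9:5450503-5571254. How often risen genes neighbour each other by chance was not tested.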
